A study of Homo sapiens with 6 samples.

Results

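The genes of the 4 small nuclear RNAs that are particular to the minor spliceosome, RNU11, RNU12, RNU4ATAC and RNU6ATAC, carried 16 USP39 binding sites, of 34781 sites in the whole list and 154 snRNA genes in the gene table. A site was counted for a gene when its central base lay within the annotated span of that gene. The sites came from iCLIP2, an assay that joins protein to RNA with 254 nm UV light, enriches the protein with an antibody, here one against USP39, and reads where reverse transcription stopped. The material was HEK293T, an established human embryonic kidney cell line, of wild-type genotype, with 3 libraries from a high and 3 from a low region of the membrane, both above the size of USP39. No other treatment or genotype was part of the design, and a no-UV control is named but was not analysed here.

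A single merged list was used, which was deposited under a library of the low membrane region. From which libraries it was merged is not given. The list gives each site a position, a strand and a width of 5 nt, and its score is 0 for every site. No value belongs to a single library, so the spread between replicates, the read depth behind a site and the difference between the high and low membrane regions are unknown. The counts below are descriptions of this list, without a test, and they are not corrected for the abundance of each RNA, which was not measured. Nor are they shown to exceed the signal without UV light.

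The minor spliceosome removes a small class of introns, often called U12-type, while the major spliceosome removes all others. U11 pairs with the 5' splice site and U12 with the branch point, and they enter as one di-snRNP. U4atac and U6atac, base-paired with each other, then join together with U5 as the minor tri-snRNP, in which U6atac takes over the 5' splice site from U11. USP39 belongs to the major tri-snRNP, built of U4, U6 and U5, and U5 is the snRNA that the major and minor particles have in common.

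Each of the 4 genes held at least 2 sites. RNU11 and RNU12 had 5 sites each, RNU6ATAC had 4 and RNU4ATAC had 2. Among all snRNA genes, 17.5% held at least 1 site, and 9.87% of all 59716 genes did. All 12 sites of RNU11, RNU12 and RNU4ATAC lay on the plus strand and all 4 sites of RNU6ATAC on the minus strand. The opposite strand of the 4 genes held 0 sites. Together the sites covered 80 of the 541 bases of the 4 genes (14.8%), from 7.69% of RNU4ATAC to 18.5% of RNU11. Positions below count from 1 at the annotated 5' end of each RNA, along the strand of the site, and are those of the central base unless a span is given. Genome coordinates follow the deposited list (GRCh38).

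U11, which recognises the 5' splice site through its own 5' end, is encoded by RNU11 on chromosome 1 from 28648600 to 28648734 (135 nt). Its sites were centred on positions 4, 18, 66, 90 and 100. The site nearest to the 5' end, at 28648601 to 28648605, covered positions 2 to 6, and the next, at 28648615 to 28648619, covered positions 16 to 20. After these came a stretch without a site up to position 64. The remaining sites lay at 28648663 to 28648667, at 28648687 to 28648691 and at 28648697 to 28648701, the last covering positions 98 to 102. Thus 2 of the 5 sites fell in the first 20 nt, and the other 3 were spread over the middle and the 3' part of the RNA.

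U12, which pairs with the branch point through a sequence in its 5' part, is encoded by RNU12 on chromosome 22 from 42615244 to 42615393 (150 nt). Its sites were centred on positions 13, 61, 77, 82 and 117. The first, at 42615254 to 42615258, covered positions 11 to 15 and was the only one before position 59. The sites at 42615318 to 42615322 and at 42615323 to 42615327 adjoined each other and formed an unbroken run from position 75 to 84, in the middle of the RNA. The remaining sites were at 42615302 to 42615306 and at 42615358 to 42615362. Of the 5 sites of U12, 3 were centred beyond its midpoint.

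U4atac, the partner that holds U6atac inactive until the spliceosome is activated, is encoded by RNU4ATAC on chromosome 2 from 121530880 to 121531009 (130 nt). It had the fewest sites of the 4 RNAs, one centred on position 12, at 121530889 to 121530893, and one on position 100, at 121530977 to 121530981. In U4atac the stretches that pair with U6atac lie in the 5' part, on either side of a stem-loop that binds SNU13 and PRPF31. The first site was thus at the 5' end of that part, and the second lay in the 3' part of the RNA, 88 nt further on. This was the longest interval between neighbouring sites in the 4 RNAs.

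U6atac, which pairs with the 5' splice site and with U12 in the active spliceosome, is encoded by RNU6ATAC on chromosome 9 from 134164439 to 134164564 (126 nt). Its sites were centred on positions 8, 17, 22 and 46, all in the 5' part of the RNA. The first, at 134164555 to 134164559, covered positions 6 to 10. The sites at 134164546 to 134164550 and at 134164541 to 134164545 adjoined each other and covered positions 15 to 24 as one run. The last, at 134164517 to 134164521, covered positions 44 to 48, and the 80 bases after its centre, up to the 3' end, carried no site centre. The sequence of U6atac that pairs with the 5' splice site lies in its 5' part, ahead of the stretches that pair with U4atac, and its 3' part forms a stem-loop. No sequence of the 4 RNAs was used here, so no site was assigned to a stem, to a splice site or branch point pairing sequence or to an Sm site base by base.

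**Figure D1:**
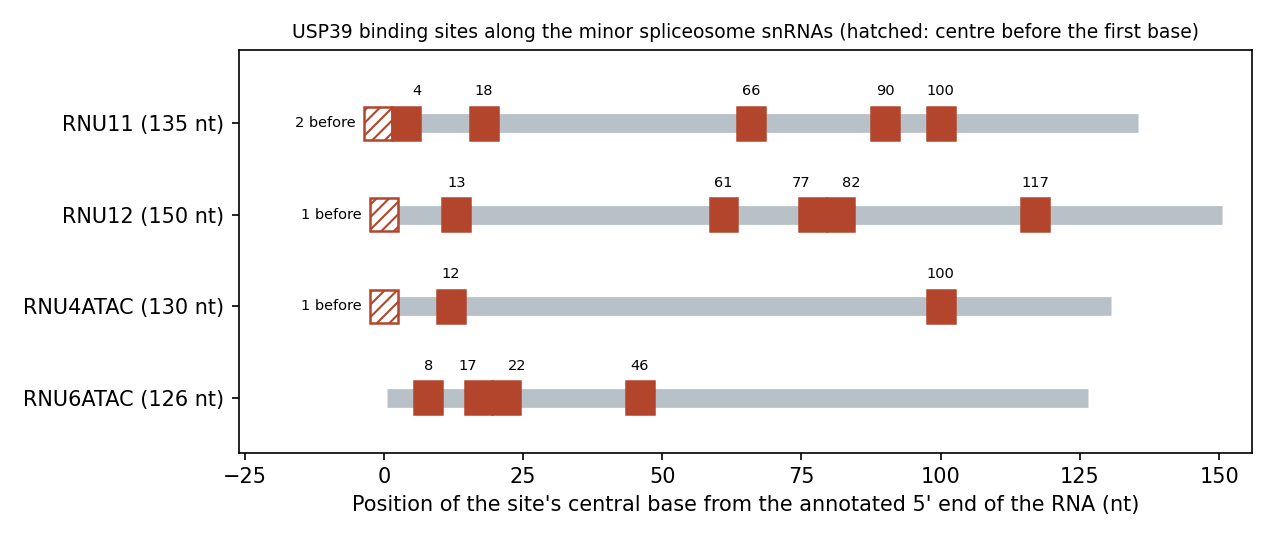
USP39 binding sites along the 4 RNAs, with the position from the annotated 5' end in nt on the horizontal axis and 1 RNA per row. Grey bars are the annotated RNAs, filled boxes the 5 nt sites counted for the gene with the position of their central base, and hatched boxes the sites centred 1 or 2 bases before the first base, which RNU11, RNU12 and RNU4ATAC had and RNU6ATAC did not.

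The arrangement along the RNAs differed between the members. Up to the midpoint there were 10 of the 16 sites (62.5%), close to the 64.4% of sites in the other snRNA genes and in nuclear tRNA genes. In snoRNA genes the share was 72.4%, with 84.3% in C/D box and 54.3% in H/ACA box genes. RNU6ATAC had all 4 of its sites before the midpoint, against 3 of 5 in RNU11, 2 of 5 in RNU12 and 1 of 2 in RNU4ATAC. The 4 RNAs shared a site close to the 5' end, with first sites at positions 4, 13, 12 and 8 in RNU11, RNU12, RNU4ATAC and RNU6ATAC. The first 20 nt held 6 of the 16 sites (37.5%), against 15.6% of the sites in other snRNA genes, 31.9% in snoRNA genes and 44.6% in C/D box genes. A stretch of 20 nt is a larger part of a shorter RNA, and shares by such stretches were not corrected for length. The last 20 nt held 0 of the 16, against 2.22% in other snRNA genes, 0.459% in snoRNA genes and 16.4% in nuclear tRNA genes. The last site was centred 35, 33 and 30 nt before the 3' end in RNU11, RNU12 and RNU4ATAC and 80 nt before it in RNU6ATAC. In the other 23 snRNA genes with a site, the last site was centred 18 to 187 nt before the 3' end, with a median of 71 nt. In nuclear tRNA genes with a site it was centred 15 to 59 nt before the 3' end, with a median of 37 nt. Whether iCLIP2 could detect sites in the last bases of RNAs as short as the 4 members was not tested.

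Outside the counted span, RNU11, RNU12 and RNU4ATAC each had one more site, which straddled the annotated 5' end. In RNU12 and in RNU4ATAC it was centred 1 base before the first base, at 42615241 to 42615245 and at 121530877 to 121530881, and its last 2 bases were the first 2 bases of the RNA. In RNU11 it was centred 2 bases before the first base, at 28648596 to 28648600, and adjoined the site at positions 2 to 6. RNU6ATAC had none. With these, 19 sites touched the 4 genes. No site was centred in the 5 nt after any of the 3' ends.

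Sites of this kind were not particular to the minor spliceosome. Among small RNA genes with a site in the gene or within 5 nt of it, 3 of 4 minor snRNA genes had a site centred 1 to 5 nt before the 5' end, against 12 of 24 other snRNA genes. These other genes included 7 of 11 U1 genes and 3 of 5 U5 genes. Of snoRNA genes 143 of 257 did (55.6%), among them 75 of 103 H/ACA box genes and 68 of 152 C/D box genes. In nuclear tRNA genes the share was 23 of 187 (12.3%). After the 3' end, such sites were found at 0 of 4 minor snRNA genes, 0 of 24 other snRNA genes, 1 of 257 snoRNA genes and 2 of 187 nuclear tRNA genes. Of the 12 sites before other snRNA genes, 6 were centred 1 base and 5 were centred 2 bases before the start, the same offsets as in the minor snRNA genes. In iCLIP a site is placed by where cDNAs end, and the list does not separate cDNAs that ended at a crosslink from those that ended at the 5' end of the RNA itself. The part of the second kind in these sites was not tested.

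**Figure D2:**
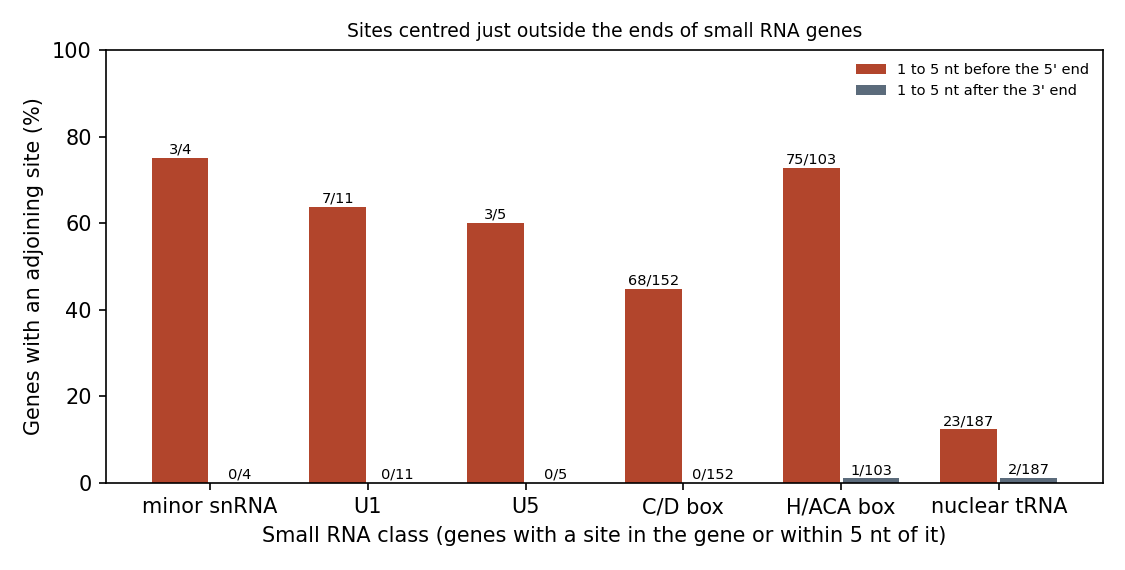
Share of genes, in percent, with a site centred 1 to 5 nt before the 5' end (red) or after the 3' end (grey), by small RNA class, among genes with a site in the gene or within 5 nt of it, with the counts above the bars. The minor snRNA genes, 3 of 4, stand beside 7 of 11 U1 genes and 75 of 103 H/ACA box genes, while the bars after the 3' end are at or near 0 in every class shown.

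The surroundings of the 4 genes were empty of other sites, though how often such stretches elsewhere hold none was not counted. Apart from the 3 sites that straddled the 5' ends, 0 sites lay within 1000 nt on either side, on either strand. The next site on the same strand was 82.6 kb upstream and 66.1 kb downstream of RNU11, and 533 kb upstream and 544 kb downstream of RNU12. For RNU4ATAC it was 2159 kb upstream and 235 kb downstream, and for RNU6ATAC 1950 kb upstream and 133 kb downstream.

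Longer genes that overlap the snRNA genes had no sites of their own. Of all 59716 genes, only 9.87% held a site on either strand, so 0 sites is the usual count for a gene. RNU11 lies within TAF12-DT, a lncRNA gene on the same strand (28643256 to 28648801), which held 0 sites outside RNU11 and the 5 nt around it. RNU4ATAC lies within CLASP1, a gene of a microtubule-binding protein that runs on the opposite strand over 311687 nt (121337776 to 121649462), and within the lncRNA gene CLASP1-AS1. Both held 0 sites outside RNU4ATAC and the 5 nt around it. RNU6ATAC lies at the end of LOC124902297, a lncRNA gene on the same strand, which also held 0 other sites. Near RNU12, POLDIP3 on the opposite strand lies 361 nt away and had 3 sites, the nearest 12260 nt from the middle of RNU12, and the lncRNA gene LOC124905127 had 0. TAF12, which lies 331 nt from RNU11, had 0 sites.

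The gene table names 64 pseudogenes after the 4 genes, 41 of them after RNU6ATAC, 17 after RNU4ATAC, 5 after RNU11 and 1 after RNU12, with 9280 bases in all. None of the 64 held a site. Of the 3058 other pseudogenes of at most 200 nt, 1.77% held one, at 0.210 sites per kb, so that few sites or none in the 64 is near the background. How the authors placed reads that match more than 1 locus is not given in the sources used here.

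Counted site by site, 3 of the 4 minor snRNA genes were near the top of the snRNA genes by density, a rank that depends on how neighbouring sites are counted. RNU11 had 37.0 sites per kb, RNU12 33.3, RNU6ATAC 31.7 and RNU4ATAC 15.4, and the 4 together 29.6. The other 150 snRNA genes together had 2.38 sites per kb, with 45 sites in 23 genes and 0 sites in 127. Of the 154 snRNA genes, RNU11, RNU12 and RNU6ATAC ranked 2, 3 and 4 by sites per kb, after RNU7-1, and RNU4ATAC ranked 13. RNU7-1, whose RNA acts in the processing of histone mRNA rather than in splicing, had 4 sites in 63 nt, or 63.5 per kb. With sites within 50 nt joined, RNU11, RNU12 and RNU6ATAC had 1 joined site each and ranked 13, 14 and 12, while RNU4ATAC kept 2 and ranked 3. The 4 genes together then had 9.24 per kb and the other 150 genes 1.37 per kb, with 26 joined sites in 23 genes. A gene with 1 joined site is ranked by its length alone, so the joined ranks do not order such genes by how many sites they hold. Neighbouring sites in RNU11, RNU12 and RNU6ATAC were centred 5 to 48 nt apart, so that joining at 50 nt left 1 in each. With sites within 10 nt joined, the 4 genes kept 12. Counted singly, no other snRNA gene had 5 or more sites, and 2 had 4, RNU7-1 and the U1 variant gene RNVU1-15. Many of the other 150 genes are near-identical copies or poorly studied loci, and the number of sites in any one copy of U1, U2, U4, U5 or U6 is uncertain.

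**Figure D3:**
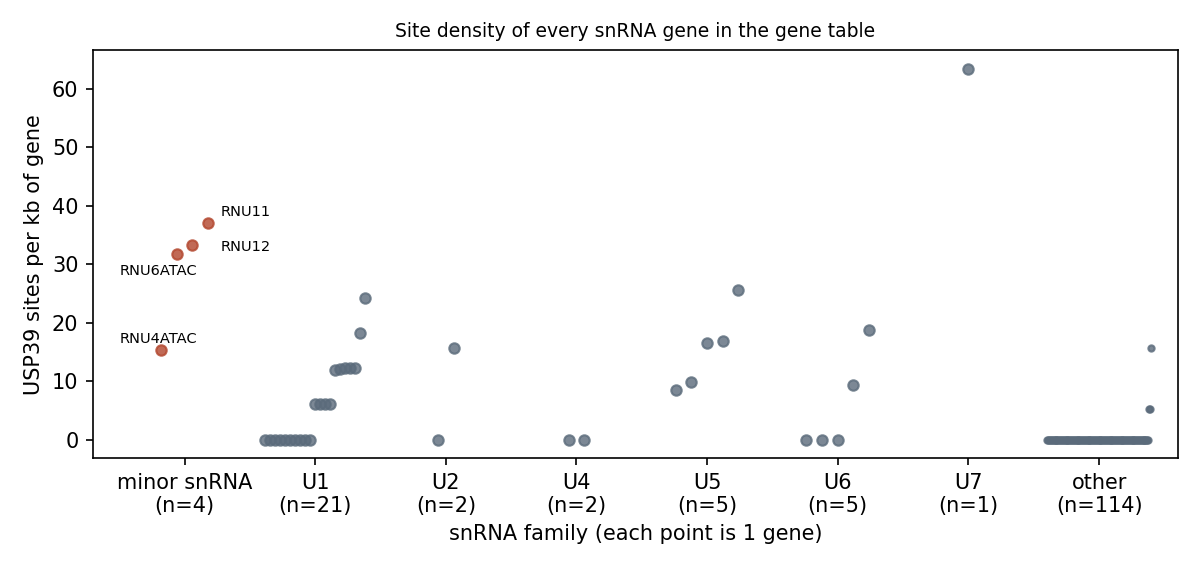
USP39 sites per kb for each of the 154 snRNA genes, with 1 point per gene and families along the horizontal axis. RNU11, RNU12 and RNU6ATAC lie between 31.7 and 37.0 per kb, below RNU7-1 at 63.5 and above every gene of the U1, U2, U4, U5 and U6 families, while RNU4ATAC at 15.4 lies among them. Sites are counted singly, without joining neighbours.

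Each minor snRNA has a counterpart in the major spliceosome, with which it shares its place and fold more than its sequence. U4atac had 2 sites, whereas its counterpart U4 had 0 in both RNU4-1 and RNU4-2. How reads that match more than 1 copy of U4 were placed is not given, so this 0 is uncertain. U6atac had 4 sites at positions 8 to 46. Of the 5 U6 genes RNU6-9 had 2 sites, at positions 52 and 89, with another centred 1 base before its start, RNU6-1 had 1 site at position 40, and the other 3 had 0. U12 had sites at positions 13 to 117. Of the genes named for its counterpart U2, RNU2-2 had sites at 75, 92 and 99, and RNU2-1, on chromosome 17, had 0. Chromosome 17 also has snRNA genes of 189 to 192 nt known only by LOC symbols. Among these, LOC124904145 had 3 sites, LOC124904146 and LOC124904147 had 1 each, and the rest had 0. Whether they are copies of U2 was not tested. U11 had its first site at position 4, while over the 11 of 21 U1 genes with a site the first site lay at positions 6 to 127, with a median of 29. Of their 21 sites, 1 fell in the first 20 nt. RNU1-4 had 1 site, RNU1-1, RNU1-2 and RNU1-3 had 0, and the other U1 genes with a site were RNVU1 variant genes. Sites centred before the start, which RNU11 and 7 of these 11 U1 genes had, are left out of these positions. The U5 genes, whose RNA serves both spliceosomes, had 9 sites in 5 genes (15.7 per kb), with 1 at position 40 in each gene. At position 40, where RNU6-1 also had its site, 0 of the 4 minor snRNAs had a site centre. The RNAs were not aligned, so the same position need not be the same place in different RNAs.

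Of 14 genes of proteins particular to the minor spliceosome, 2 held a site on their own strand (14.3%), while 22.0% of all 20050 protein-coding genes did, a share near the background for a list of this size. The 4207 of the 20050 without a resolved strand took the strand with more sites, so the 22.0% may be somewhat too high. The median was 0 sites in the list and over all protein-coding genes. CENATAC, which encodes a minor tri-snRNP protein, had 11 sites on chromosome 11 between 118999175 and 119011549, spread from 5.89% to 76.0% of its length. One of these also lay within RPL23AP64, a ribosomal protein pseudogene. RNPC3, which encodes the U11/U12 protein that bridges the di-snRNP, had 2 sites on chromosome 1, at 103553361 to 103553365 and at 103554632 to 103554636, both in the last 10% of the gene. The other 12 genes had 0 sites. They include SNRNP25, SNRNP35, SNRNP48, PDCD7, ZMAT5 and ZCRB1, which encode further U11/U12 proteins, and ZRSR2, which encodes the factor that recognises the 3' splice site of U12-type introns. SCNM1, RBM48, ARMC7, TXNL4B and CRIPT make up the rest.

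Other lists held genes of proteins of the major spliceosome, most of which are known to act in the minor one too. All 7 genes of the SF3B complex, which binds the branch point together with U2 or U12, had a site, with a median of 6 and from 1 in PHF5A, SF3B4 and SF3B5 to 41 in SF3B3. All 7 Sm genes, whose proteins form the ring on U11, U12 and U4atac, had 3 or more sites, with a median of 7 and 16 in SNRPB. Of 14 tri-snRNP protein genes 10 had a site, with a median of 3. They include the gene of USP39 itself, the protein that was immunoprecipitated, with 5. PRPF8, the central protein of both spliceosomes, led with 81, while SNU13 and PRPF31, which bind the 5' stem-loop of U4atac, had 1 each. Of all 20050 protein-coding genes, 4419 (22.0%) had a site and 2453 had 3 or more, with a median of 0. The lists were chosen with earlier results of these data known and were compared as counts only. Expression was not measured, so the part of expression level in these differences was not tested.

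**Figure D4:**
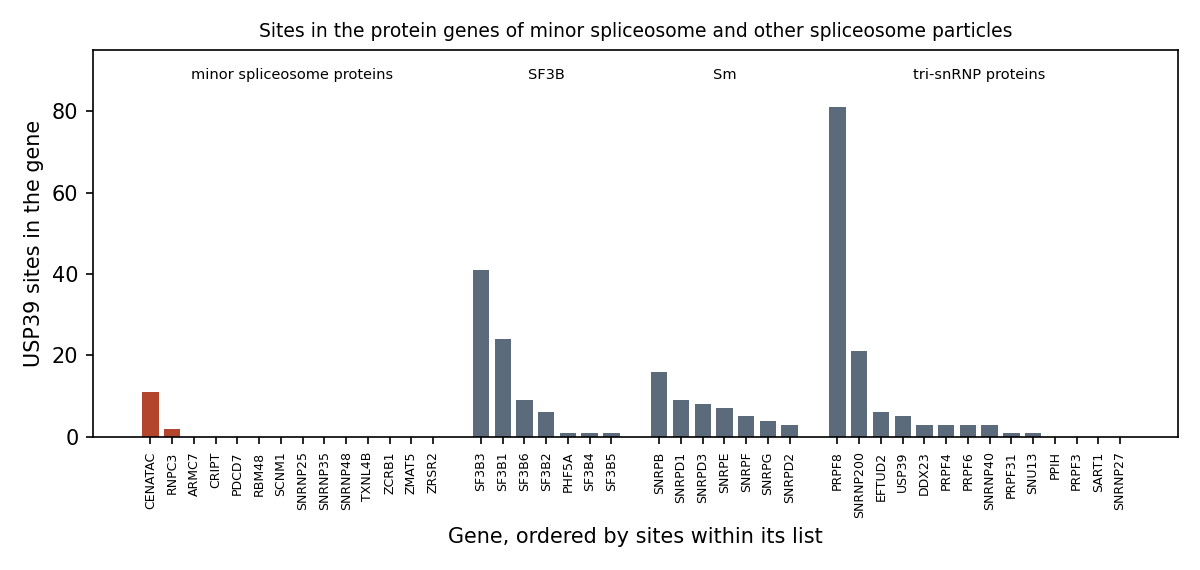
Number of USP39 sites in each gene of 4 lists, 14 proteins particular to the minor spliceosome (red) and 7 SF3B, 7 Sm and 14 tri-snRNP proteins (grey), ordered by sites within a list. In the minor spliceosome list CENATAC with 11 and RNPC3 with 2 stand above 12 genes at 0, and the highest of the other lists is PRPF8 with 81.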

How the data were processed

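USP39-bound RNA of HEK293T cells was measured by iCLIP2 in 6 libraries. Per the submitters' processing notes, the build was GRCh38.p12, and UMI-tools 1.1.2, bedtools 2.29.2, SAMtools 1.10, STAR 2.7.3a and FastQC 0.11.9 were used, in roles that are not stated. How sites were called and filtered, and from which libraries, is not given in the sources used here. For every site the deposited score is 0, so position and strand alone were used.

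RefSeq annotation (GRCh38.p14, 59716 genes) supplied gene names and spans. Each site was assigned by its central base. Strands of protein-coding and lncRNA genes came from a RefSeq promoter table; the 4207 protein-coding genes that it does not resolve took the strand with more sites. Sites in small RNA genes of at most 1000 nt were left out of protein gene counts. The members and lists were chosen with earlier results of these data known. Named genes are the 4 members, genes within 1000 nt of them, their pseudogenes with a site, the U4, U5, U6 and U7 genes and the protein lists; the U1 and U2 genes and RPL23AP64 were added after their values were seen. The counting script was tested on simulated data. Software was Python 3.11.15, numpy 2.4.6, pandas 2.3.3 and matplotlib 3.10.9.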

Additional observations from a re-analysis of the deposited data

How the results depend on the processing

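Of 16 alternatives, 10 gave a value within 1.5 times the reported one. The number of sites in the 4 genes, reported as 16, was 19 with any base of a site in the gene or with spans widened by 10 nt, 16 on the main strand only, and 12 with sites within 10 nt joined. With sites within 50 nt joined it was 5, at 9.24 sites per kb in place of 29.6, since joining merges most of the sites of an RNA of this length; the other snRNA genes then had 1.37 per kb in place of 2.38, an alternative chosen after seeing the data. Density in the flanks was 1.88 sites per kb with 200 nt on each side, 3.75 with 100 nt and 0.750 with 500 nt, because the same 3 sites at the 5' ends were divided by a different length. The 10 sites in the 5' part were 9 to 11 with the other bases of a site as its position, and 8 against 4 in the 3' part with the middle 20% of each RNA left out. With at least 3 sites required, 1 minor spliceosome protein gene held sites in place of 2; counting on either strand, also chosen after seeing the data, left 2. No paired analysis was possible because the merged list has no values per library. With no depth or replicate behind a site, small differences between the 4 genes, such as 4 against 5 sites, cannot be told from error.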
